A study of Mus musculus with 12 samples.

Results

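The interferon response genes are 39 genes that cells switch on after contact with type I or type II interferon, together with the transcription factors that drive them, and their chromatin accessibility was measured by ATAC-seq in blood progenitors of mice with or without an upstream enhancer of the PU.1 gene. The 39 genes were listed by name, and a region of the deposited count table was taken as theirs when it lay at most 10 kb from any annotated start of a listed gene in the GRCm38 annotation. By this rule 154 of the 121336 regions belonged to the genes, against 64527 other regions within 10 kb of a start site of any gene. At least 1 region was found for 38 of the 39 genes, with 1 to 10 regions per gene, and no region lay within 10 kb of a start site of Ifit3. Of the 154 regions, 13 were shared by 2 or more of the genes, because their start sites are close together, and 116 had a start site of a listed gene as their nearest start site. Regions with an edge within 500 bp of a start site of a listed gene are called promoter regions (48 regions, covering 37 genes), and the other 106 are called distal. For the other regions the same 500 bp limit was applied to start sites of any gene. Distal regions of the listed genes can thus include promoters of unlisted genes, which other distal regions leave out. This holds for every comparison of distal regions or distances below. By annotation 60 of the 154 regions were centred in an intron, 54 between genes, 21 in the untranslated part of an exon, 14 in a coding exon and 5 in a non-coding exon.

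All mice were C57BL/6 animals. WT mice carry the intact upstream regulatory element (URE) of Spi1, which encodes the factor PU.1, and UREd/d littermates (URE below) lack it on both alleles, in every cell of the body, as a preleukaemic model with low PU.1. LSK cells (lineage-negative, Sca-1+ c-Kit+), which hold the stem cells and early progenitors, and GMP cells (granulocyte-macrophage progenitors, lineage-negative, Sca-1- c-Kit+ CD16/32+) were sorted from bone marrow, which gave 4 groups of 3 libraries (WT-LSK and WT-GMP, URE-LSK and URE-GMP). The study's methods count each library of a group as its own mouse, so the p-values measure the spread between mice, and the sources do not say whether LSK and GMP cells were taken from the same animals. The labels give no treatment with interferon or any other agent.

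Interferons bind receptors on the cell surface, whose Janus kinases activate a complex that includes STAT2 and IRF9 and binds the interferon-stimulated response element (ISRE) in promoters of responding genes. Members of the IRF family bind the same element. PU.1 binds DNA beside IRF4 or IRF8 at ETS-IRF composite elements (EICE), whose IRF part resembles an ISRE, and stem cells are known to express part of the interferon programme without infection. Ly6a, which encodes the Sca-1 antigen used in both sort gates, is itself inducible by interferon.

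The libraries held 23072701 to 62204826 counts each in the table, and values are given below as counts per 1000000 (CPM), with library sizes scaled by the trimmed mean of M values (TMM). The region that covers the deleted element had 36.0 to 42.4 (WT) and 0 to 0.143 CPM (URE) in LSK, and 41.6 to 46.2 (WT) and 0 to 0.0485 CPM (URE) in GMP, as the labels of all 12 libraries state. Several of the marker lists moved with the genotype. The summed promoter accessibility of 6 plasmacytoid dendritic cell markers, 4 of which had a promoter region (Cox6a2 and Klk1 had none), was 26.3 to 32.9 (WT) against 17.7 to 18.2 CPM (URE) in LSK, and 20.3 to 22.5 against 10.1 to 13.7 CPM in GMP. Monocyte and macrophage markers had 50.7 to 58.2 against 32.1 to 34.0 CPM in LSK and 101 to 113 against 63.4 to 83.2 CPM in GMP. Granulocyte-monocyte progenitor markers had 203 to 263 CPM in WT-GMP and 335 to 349 CPM in URE-GMP, and overlapped in LSK (28.9 to 35.3 against 25.1 to 51.1). Stem and progenitor markers overlapped by genotype in LSK (299 to 309 against 305 to 346 CPM) and in GMP (241 to 280 against 256 to 262). Mast cell and basophil markers (4 of 6 with a promoter region) had 53.0 to 65.4 against 74.8 to 82.0 CPM in LSK and overlapped in GMP (54.5 to 77.4 against 71.7 to 82.8). The T and NK cell genes Cd3d, Cd3e, Cd3g, Cd8a and Ncr1 had no promoter region in the table, and the sole gene of that list with one had 1.05 to 1.43 against 0.491 to 0.738 CPM in LSK and 1.76 to 2.37 against 0.896 to 1.60 in GMP. The B cell list (2 of 6) and the erythroid list (1 of 6) overlapped by genotype in LSK and were lower in URE-GMP, with 9.33 to 9.98 against 7.20 to 8.47 and 6.17 to 9.20 against 5.04 to 5.45 CPM. The part of these cell types in the results below was not tested, and in bulk sorted cells, fewer cells with an open region and less accessibility per cell cannot be told apart.

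The sequences below are examples of motif matches in regions that changed and in 2 promoters that did not. Each stretch holds a match, so they do not show how often matches occur in changed or unchanged regions. They were read from the GRCm38 genome with capitals marking the motif named, which was searched on both strands. The ISRE core was searched as GAAANNGAA, the composite element as GGAANNGAA and the PU.1 site as GAGGAAGT. The ISRE and composite patterns end in the same letters and can overlap, and the PU.1 pattern holds the GGAA that opens the composite pattern. A capital stretch that starts with TT is a match read on the opposite strand. The first pair are 150 bases of the promoters of Ifit1 and Isg15, classical responders whose promoter regions were not called for genotype, with their ISRE matches in capitals.
Ifit1 promoter (chr19:34640721-34640870, plus strand): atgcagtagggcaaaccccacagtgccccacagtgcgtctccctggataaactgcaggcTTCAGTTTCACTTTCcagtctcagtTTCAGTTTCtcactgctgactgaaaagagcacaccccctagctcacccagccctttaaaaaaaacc
Isg15 promoter (chr4:156200819-156200968, minus strand): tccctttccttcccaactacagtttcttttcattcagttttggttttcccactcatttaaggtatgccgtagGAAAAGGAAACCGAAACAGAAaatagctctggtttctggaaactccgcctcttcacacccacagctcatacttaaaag

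The Oas2 promoter, which lost accessibility in URE cells, holds 1 ISRE match.
Oas2 promoter (chr5:120749854-120750003, minus strand): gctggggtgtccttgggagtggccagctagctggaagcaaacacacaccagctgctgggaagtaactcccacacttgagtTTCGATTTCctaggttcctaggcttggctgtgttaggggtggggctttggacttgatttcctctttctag

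In the next 4 distal stretches, each from a region that lost most of its accessibility in URE cells, the capitals mark an ISRE match (Ddx58, Oasl1 and Usp18) or the PU.1 match (Samhd1).
Ddx58, region 6.5 kb downstream (chr4:40233147-40233247, minus strand): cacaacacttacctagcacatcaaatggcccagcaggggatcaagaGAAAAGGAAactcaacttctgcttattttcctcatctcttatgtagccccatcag
Oasl1, region 6.3 kb upstream (chr5:114916940-114917040, plus strand): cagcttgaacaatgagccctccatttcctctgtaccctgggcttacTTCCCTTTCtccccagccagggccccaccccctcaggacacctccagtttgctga
Usp18, region 5.5 kb downstream (chr6:121251211-121251301, plus strand): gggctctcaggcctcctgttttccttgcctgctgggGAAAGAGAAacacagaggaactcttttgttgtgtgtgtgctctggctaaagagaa
Samhd1, region 3.8 kb upstream (chr2:157139051-157139151, minus strand): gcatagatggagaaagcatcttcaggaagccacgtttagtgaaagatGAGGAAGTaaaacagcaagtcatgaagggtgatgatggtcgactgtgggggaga

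Composite matches are marked in the last 4 stretches. The first 3 come from regions that lost accessibility, and the stretch from the Isg20 region comes from one that gained it in both cell types.
Irf5, region 2.3 kb upstream (chr6:29524165-29524265, plus strand): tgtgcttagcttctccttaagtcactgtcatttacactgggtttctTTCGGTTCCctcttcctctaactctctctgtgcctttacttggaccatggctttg
Irf2, region 4.0 kb upstream of an internal start site (chr8:46789552-46789652, plus strand): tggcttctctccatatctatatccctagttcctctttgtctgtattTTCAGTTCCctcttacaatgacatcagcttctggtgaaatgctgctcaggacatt
Mx1, region 9.8 kb upstream (chr16:97472736-97472836, minus strand): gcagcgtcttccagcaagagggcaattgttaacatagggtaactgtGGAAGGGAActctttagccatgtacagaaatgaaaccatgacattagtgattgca
Isg20, region 9.9 kb upstream (chr7:78903359-78903459, plus strand): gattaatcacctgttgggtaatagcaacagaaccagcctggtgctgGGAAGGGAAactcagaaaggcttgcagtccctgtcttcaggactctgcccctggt

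The ISRE pattern was found in 33.8% of the 154 regions and in 14% of the other regions within 10 kb of a start site. Among promoter regions of the interferon response genes 58.3% held it, against 15.5% of other promoter regions, while the shares of distal regions were 22.6% and 13.3%. The composite pattern was found in 26% of the genes' regions against 14.5% of the others, and the PU.1 pattern in 11.7% against 9.83%. In RefSeq promoters of GRCm38, which span 250 bases before to 50 after the start, 31 of the genes were matched and 15 of these (48.4%) held an ISRE match, against 9.76% of 27025 promoters. A match says only that these letters are present.

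The question for each cell type was how loss of the URE changed accessibility at these genes. Most promoter regions kept their accessibility within a narrow range, and nearly all calls lay in distal regions. Calls needed an edgeR quasi-likelihood adjusted p (Benjamini-Hochberg over all 121336 regions) under 0.05 and a log2 fold change above 1 or below -1. In LSK 9 of the 154 regions were called higher and 35 lower in URE, that is 28.6% of them, while 37.5% of all regions and 30.6% of other regions within 10 kb of a start site were called (10.2% higher and 20.4% lower). In GMP 12 regions were called higher and 31 lower, 27.9% against 39.7% of all regions and 32.7% of the others near a start site (12.6% higher and 20.1% lower). The share of regions called was thus close to the background in both cell types. The median log2 fold change over the 154 regions was 0.06 in LSK and -0.04 in GMP, beside 0.16 and 0.10 over the other regions. Other scalings changed the split between directions. Offsets for GC content gave 19 higher and 31 lower in LSK and 21 higher and 23 lower in GMP, and with a loess normalisation the counts were 17 and 28 in LSK and 19 and 24 in GMP. The other regions near a start site shifted too. In LSK they went from 6597 higher and 13175 lower to 11276 and 11253 with GC-content offsets and 10703 and 10548 with loess. In GMP they went from 8159 and 12968 to 11727 and 10722 with GC-content offsets and 11439 and 9847 with loess.

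Of the 48 promoter regions, 3 were called in LSK and the same 3 in GMP, all lower, at Oas2, Irf5 and Irf9. Among other promoter regions 11.5% were called in LSK (3.84% higher and 7.69% lower) and 13.1% in GMP (4.81% and 8.26%). For the remaining 45 promoter regions the log2 fold change ran from -0.59 to 0.64 in LSK and from -0.57 to 0.68 in GMP, and 11 of them in LSK and 10 in GMP had an adjusted p under 0.05 with a change below the fold limit. The most accessible promoter region was called in neither cell type for 35 of the 37 genes that had one, with Irf5 and Oas2 as the exceptions. The same count was not taken for other genes. Distal regions were called about as often as other distal regions, though the classes are defined differently. In LSK 9 were higher and 32 lower (38.7% of 106, against 38.7% of other distal regions, 12.9% higher and 25.8% lower). In GMP 12 were higher and 28 lower (37.7%, against 41%, of which 15.9% higher and 25.1% lower). Only the distal regions of the listed genes can include promoters of unlisted genes, and the effect of this on the shares was not tested. Groups of libraries did not overlap at 22 of 48 promoter regions (45.8%, other promoters 64.4%) and 73 of 106 distal regions (68.9%, others 65.4%) in LSK, and at 16 promoter (33.3%, others 55.4%) and 78 distal regions (73.6%, others 66.2%) in GMP.

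**Figure D1:**
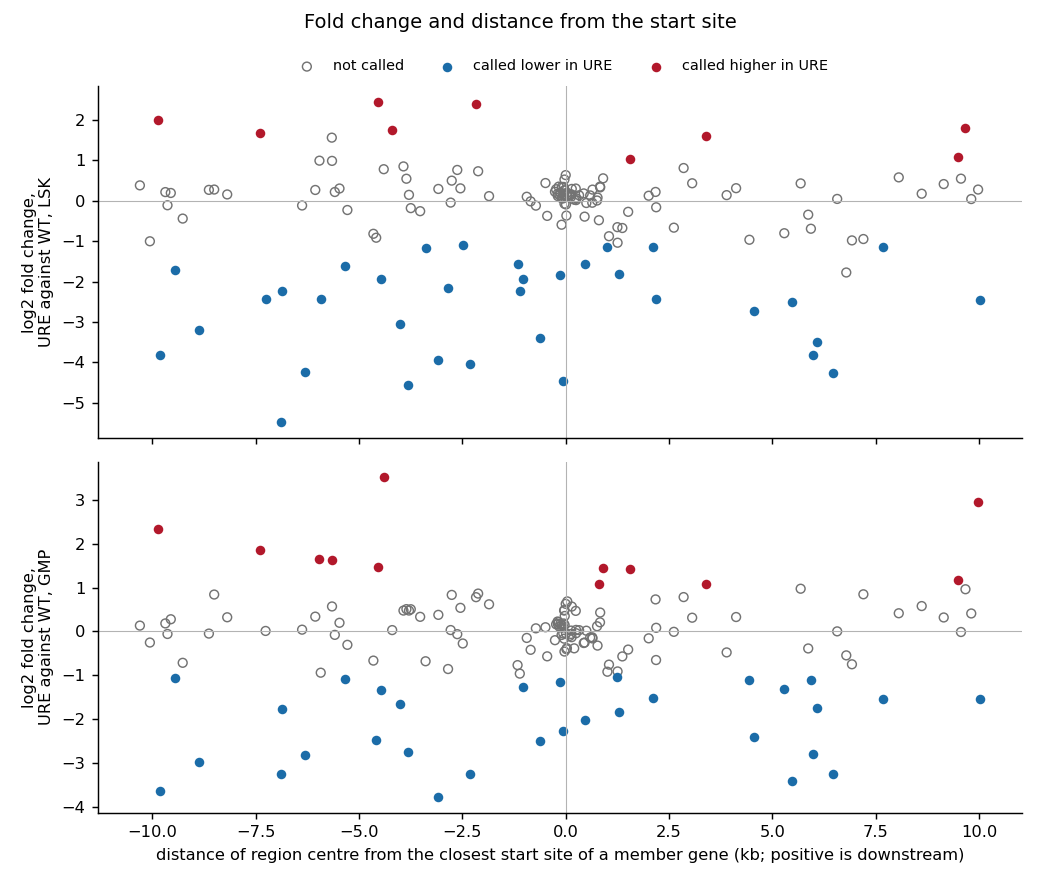
Log2 fold change (URE against WT, y axis) of each of the 154 regions against the distance in kb of its centre from the closest start site of an interferon response gene (x axis), for LSK above and GMP below; filled points were called. Regions at the start site form a dense cluster near 0, with 3 called, and the called regions spread over both sides out to 10 kb.

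Calls were spread over all distances outside the promoter. Distances in this paragraph run from the region edge, to a start site of a listed gene for these regions and of any gene for the others. Between 0.5 and 2 kb from a start site, 7 of 21 regions were lower in LSK (33.3%, against 22.3% of other regions at that distance) and 4 in GMP (19.0%, against 22.1%). Between 2 and 5 kb the counts were 10 and 9 of 35 (28.6% in LSK and 25.7% in GMP, against 26.3% and 25.1% of the others), and between 5 and 10 kb they were 15 and 15 of 50 (30% in each, against 27.5% and 26.9% of the other regions). At the edge of the 10 kb window itself, the last regions inside were those of Ifih1 at 9947 bp (WT and URE means of 0.202 and 0.0988 CPM in LSK, 2.19 and 1.82 in GMP) and Dhx58 at 10000 bp (10.7 and 14, 11.5 and 12.5 CPM). Just outside lay regions of Isg20 at 10013 bp (4.39 and 6.70 CPM in LSK, 2.29 and 2.92 in GMP) and Zbp1 at 10679 bp (35.7 and 39.9, 33.7 and 27.5 CPM).

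Most regions that were lower in GMP were lower in LSK too, here and among other regions near a start site. Of the 154 regions, 26 were lower in both LSK and GMP (3 promoter and 23 distal, at 17 genes), 6 were higher in both, and none changed in opposite directions. These 26 are 74.3% of the regions lower in LSK and 83.9% of those lower in GMP. Of the other regions near a start site, 10118 were lower in both, while 13175 were lower in LSK and 12968 in GMP. A further 9 were called lower in LSK and not in GMP, and 5 in GMP and not in LSK, and 99 regions were called in neither. Opposite changes, calls in a single cell type and regions called in neither were not counted among the other regions. Among other regions near a start site 15.7% were lower in both, beside 16.9% here, and 6.24% higher in both, and among other distal regions the shares were 19.9% and 7.91%. The median over all libraries was 2.19 CPM for the regions lower in both and 8.49 CPM for regions called in neither. The first value includes the URE libraries, whose loss defines that class, and 45 of the 99 regions called in neither were promoter regions. The 2 medians thus do not compare how open the regions were in WT. At least 1 lower region was found at 26 genes in LSK and 21 in GMP, and at least 1 higher region at 9 and 12 genes. No region was called for genotype at 9 genes: Stat2, Ifit2, Ifi35, Oasl2, Mx2, Eif2ak2, Gbp3, Xaf1 and Adar. These counts of genes depend on how many regions each gene has, and they were not taken for other genes.

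**Figure D2:**
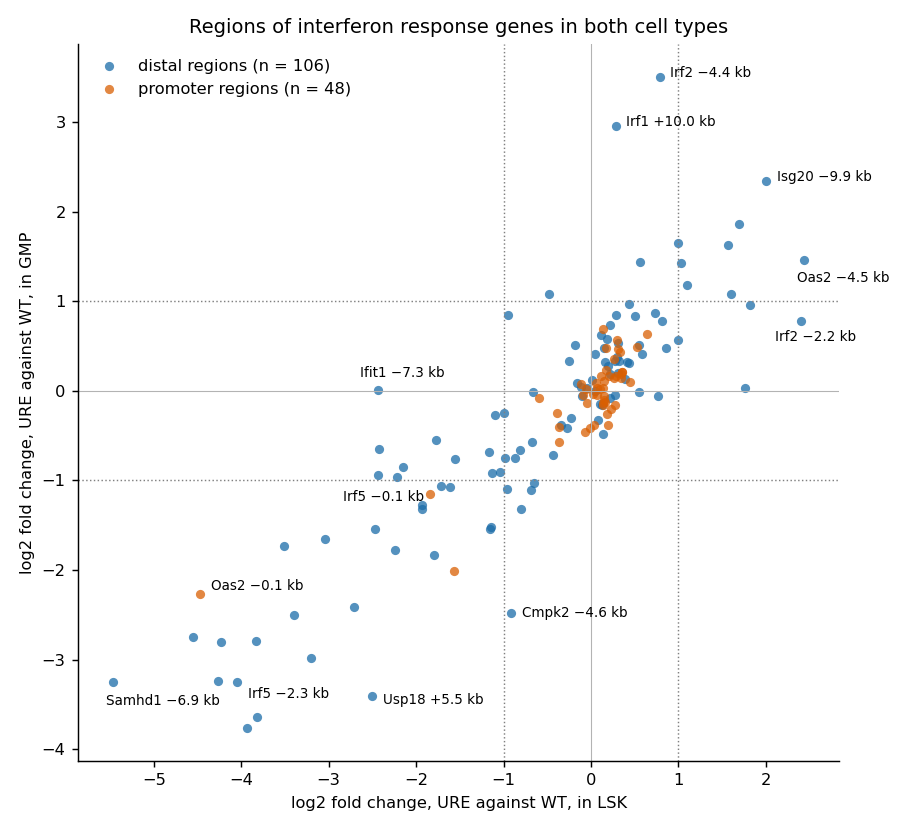
Log2 fold change (URE against WT) of the 154 regions in LSK (x axis) and GMP (y axis), with dotted lines at the fold limit of 1 and -1. Promoter regions (orange, n = 48) gather near 0 apart from 3 in the lower left, where the 26 regions lower in both cell types lie, and no region was called in opposite directions.

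The regions are next given by the role of their genes, beside a background of 20.4% lower and 10.2% higher in LSK and 20.1% and 12.6% in GMP among other regions near a start site. Of the 26 regions of Irf1, Irf2, Irf5, Irf7, Irf9 and Stat2, 11 were lower and 2 higher in LSK, and 8 lower and 4 higher in GMP. The nucleic acid sensors (26 regions) had 5 lower and 0 higher in LSK and 6 lower and 1 higher in GMP. OAS family genes (11 regions) had 3 lower and 1 higher in LSK and 2 and 1 in GMP. The antiviral effectors (52 regions) had 9 lower and 5 higher in LSK and 9 and 3 in GMP, and the ubiquitin-like and ADP-ribose genes (22 regions) 5 lower and 0 higher, and 5 and 1. Antigen processing genes (12 regions) had 2 lower and 1 higher in LSK and 1 and 2 in GMP, and Ifi35 and Xaf1 (5 regions) had none. These differences between roles were not tested.

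**Figure D3:**
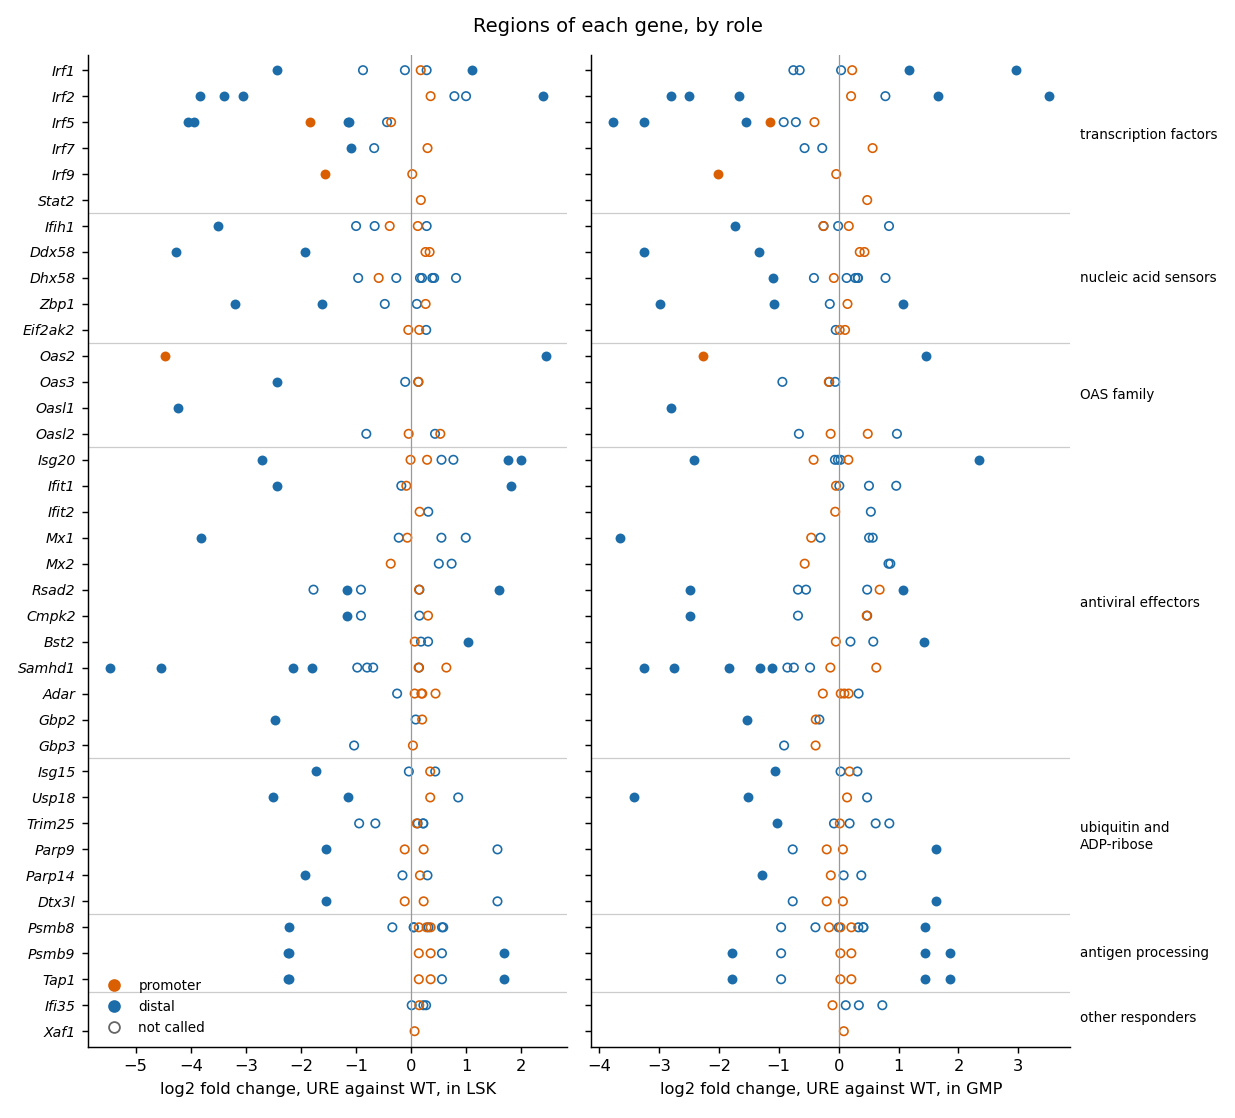
Log2 fold change (URE against WT; LSK left, GMP right) of each region of the 38 genes that had one, in rows by gene and grouped by role; orange is promoter, blue distal, filled called and open not called, and a region shared by several genes is drawn in each of their rows. In most rows the orange points are open and within 0.7 of 0. Filled blue points lie to the left of 0 in many rows and to the right in fewer.

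Irf5 encodes a factor that drives inflammatory cytokines and interferon in myeloid cells, and lost accessibility at its promoter and upstream of it. Its region 2.3 kb upstream (chr6:29524000-29524622) had 6.90, 10.3 and 7.38 CPM (WT) and 0.404, 0.530 and 0.534 CPM (URE) in LSK, and 31, 27.1 and 28.5 CPM (WT) and 1.74, 6.57 and 0.581 CPM (URE) in GMP. All URE libraries were below all WT libraries of their cell type, and 1 URE-GMP library was well above the other 2. The log2 fold change was -4.05 ± 0.60 (SE, n = 3 per group, as below) in LSK (edgeR adjusted p = 2.7e-05) and -3.25 ± 0.50 in GMP (edgeR adjusted p = 4.3e-05). It was picked after its values were seen, the naming rule having taken the promoter only. At the promoter region (chr6:29528641-29529674) the WT-LSK libraries had 22.2, 23.8 and 23.4 CPM against 5.57, 8.37 and 5.49 CPM in URE-LSK, and the WT-GMP libraries 28, 31.1 and 29.1 CPM against 13.6, 16.7 and 9.35 CPM in URE-GMP. The groups did not overlap in either cell type, and the log2 fold change was -1.84 ± 0.19 in LSK (edgeR adjusted p = 6.6e-07) and -1.15 ± 0.18 in GMP (edgeR adjusted p = 5.5e-05). The GMP call passed the fold limit by little and was lost with GC-content offsets (-0.94) and without URE-GMP replicate 3 (-0.96). A region 7.7 kb downstream, likewise picked afterwards, was also lower in both (-1.15 and -1.54), the LSK call being lost with GC-content (-0.83) or loess offsets (-0.94).

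Irf2, a factor that competes with IRF1 at the same sites and holds back interferon signalling in stem cells, had regions that moved both ways around an open promoter. Its promoter region (chr8:46739333-46741796) had 75.5 ± 1.09 (WT) and 96.4 ± 3.67 CPM (URE) in LSK (mean ± SD), and 96.5 ± 11.1 (WT) and 111 ± 6.01 CPM (URE) in GMP. The log2 fold changes of 0.35 ± 0.08 and 0.21 ± 0.08 were under the fold limit, and both were called only with no fold threshold. In an intron, 4.0 kb upstream of an internal start site (chr8:46789123-46789864), the libraries had 10.1, 9.91 and 9.79 CPM (WT) and 1.07, 1.65 and 0.918 CPM (URE) in LSK, and 20.2, 15.4 and 18.1 CPM (WT) and 4.69, 8.43 and 3.80 CPM (URE) in GMP. URE libraries lay below WT libraries in both cell types, with -3.05 ± 0.28 in LSK and -1.66 ± 0.25 in GMP. A further pair of intronic regions, chr8:46745566-46745846 and chr8:46792753-46792998, were lower, with log2 fold changes of -3.83 and -3.40 in LSK and -2.79 and -2.50 in GMP. These 3 lower regions were picked after their values were seen. Between them, a region at chr8:46791192-46791471 had 0.472, 0.490 and 0.422 CPM in WT-LSK and 2.55, 1.98 and 2.71 CPM in URE-LSK, a rise of 2.40 ± 0.26 (edgeR adjusted p = 1.1e-06). In GMP it had 1.59, 1.34 and 1.64 CPM in WT and 2.07, 2.83 and 2.93 CPM in URE, a change of 0.78 ± 0.23 that was not called. With loess offsets this GMP change was 1.17 and passed the fold limit. Another, at chr8:46735225-46735437 in an intron, was low in WT-GMP (0.167, 0.273 and 0.0461 CPM) and higher in URE-GMP (1.77, 2.32 and 1.57 CPM), by 3.51 ± 0.50. It was not called in LSK, where its change passed the fold limit with loess offsets (2.30).

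**Figure D4:**
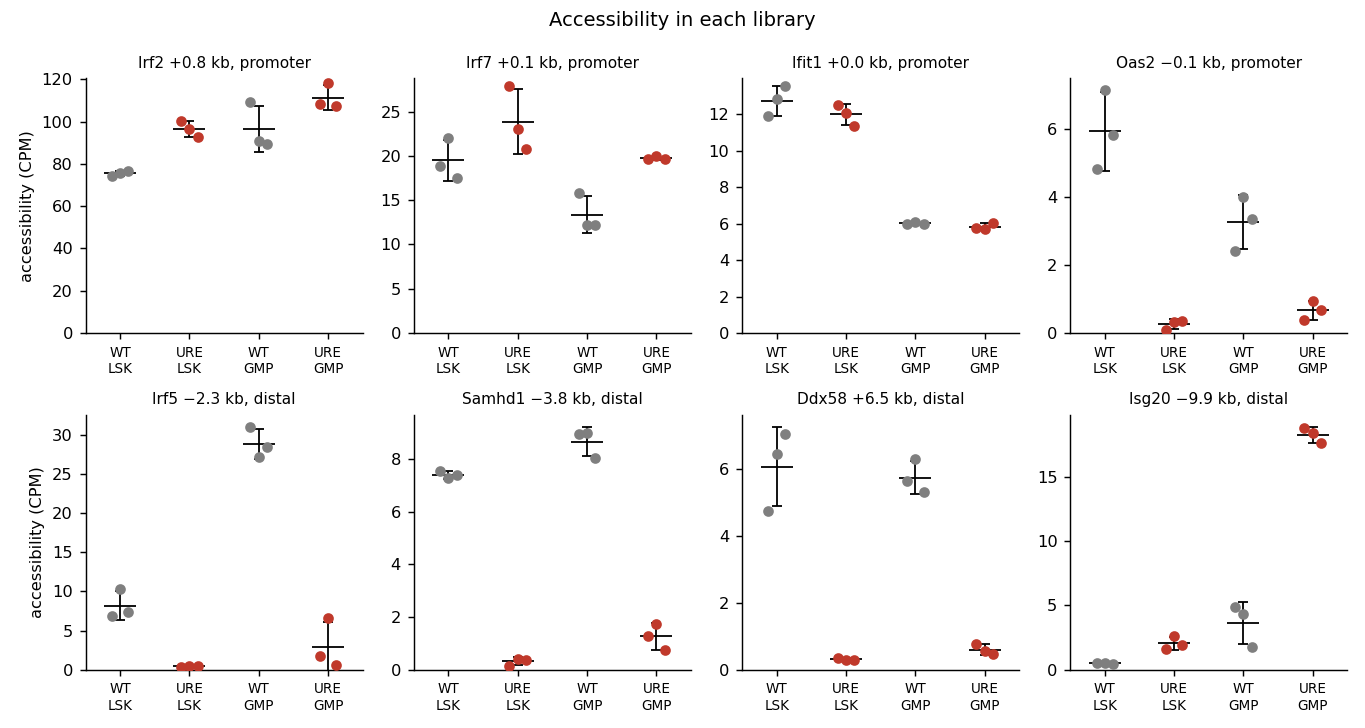
Accessibility in CPM (y axis, from 0) of 8 regions in each of the 12 libraries (points), with the mean (wide bar) and SD (error bar) of each group of 3; grey is WT and red URE. The genotype changes at the promoters of Irf2, Irf7 and Ifit1 stay under the fold limit. The Oas2 promoter and the distal regions of Irf5, Samhd1 and Ddx58 are low in all URE libraries, and the Isg20 distal region is high in URE-GMP.

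Irf1, the factor induced by interferon gamma, had a promoter region that was not called (chr11:53769694-53770909; 61.5 and 69.4 CPM in WT- and URE-LSK, 75.1 and 87.7 in GMP; log2 fold changes 0.17 ± 0.10 and 0.23 ± 0.10, which turn negative under some scalings). A region 2.2 kb downstream (chr11:53772490-53772876) had 6.51, 8.61 and 7.20 CPM in WT-LSK and 0.999, 2.15 and 1.03 CPM in URE-LSK. In GMP the same region had 7.66, 7.07 and 7.26 CPM in WT and 5.32, 5.29 and 3.34 CPM in URE. The log2 fold change in LSK was -2.43 ± 0.28 (edgeR adjusted p = 1.7e-06), and the change in GMP, -0.65 ± 0.25, was not called. At the far side, 10 kb downstream (chr11:53780360-53780593), the pattern was the other way, with 0.262, 0.530 and 0.523 CPM (WT) and 0.642, 0.642 and 0.320 CPM (URE) in LSK, and 0.377, 0.336 and 0.207 CPM (WT) and 2.43, 2.64 and 1.94 CPM (URE) in GMP. Only the URE-GMP libraries stood above the rest there, by 2.95 ± 0.37 over WT-GMP (edgeR adjusted p = 6.7e-06), and the change in LSK was 0.28 ± 0.39. With loess offsets the LSK change was 1.33 and passed the fold limit.

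The other factors, which act directly downstream of the interferon receptor or amplify its signal, had main promoter regions that were not called. Stat2, a subunit of the receptor-activated complex, had 1 region, at its promoter (chr10:128270195-128270884), with 33.6, 36.9 and 34.7 CPM (WT) and 41.9, 41.4 and 35.6 CPM (URE) in LSK, and 23.8, 31.6 and 36 CPM (WT) and 42.7, 42.4 and 42.5 CPM (URE) in GMP. Its libraries overlapped by genotype in LSK (0.17 ± 0.12) and not in GMP (0.48 ± 0.12, edgeR adjusted p = 0.0025), where the change was under the fold limit. Irf7, which amplifies type I interferon production, had 19.5 and 23.9 CPM at its promoter in WT- and URE-LSK and 13.4 and 19.7 in GMP, changes of 0.30 ± 0.14 and 0.57 ± 0.14. The GMP change at Irf7 was under the fold limit and was called only with no fold threshold. Irf9, the DNA-binding subunit of the complex, had a main promoter region with changes of 0.02 ± 0.08 and -0.04 ± 0.08. A weak second region of Irf9 that starts in a coding exon within 500 bp of an annotated start (chr14:55604949-55605162; means of 1.49 (WT) and 0.504 CPM (URE) in LSK, and 2.40 (WT) and 0.588 CPM (URE) in GMP) was lower, with log2 fold changes of -1.56 and -2.01. It was named because it is 1 of the 3 called promoter regions, and its LSK value was -0.86 and not called with loess offsets.

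Among the sensors, the RNA helicase genes Ddx58 (RIG-I) and Ifih1 (MDA5) and the Z-nucleic acid sensor Zbp1 lost distal regions, while their promoters were not called. The Ddx58 region in an intron 6.5 kb downstream (chr4:40233102-40233595) had 4.75, 6.45 and 7.04 CPM (WT) and 0.357, 0.279 and 0.299 CPM (URE) in LSK, and 5.65, 6.29 and 5.30 CPM (WT) and 0.775, 0.572 and 0.460 CPM (URE) in GMP. Every URE library was far below every WT library, and the log2 fold changes were -4.27 ± 0.26 in LSK (edgeR adjusted p = 6.2e-09) and -3.24 ± 0.24 in GMP (edgeR adjusted p = 4.9e-08). The Zbp1 region 8.9 kb upstream (chr2:173227596-173227988) had 3.91, 3.67 and 3.52 CPM (WT) and 0.452, 0.307 and 0.427 CPM (URE) in LSK, and 3.60, 4.26 and 4.06 CPM (WT) and 0.323, 0.659 and 0.509 CPM (URE) in GMP. WT and URE libraries did not overlap there either, with -3.20 ± 0.27 and -2.98 ± 0.26. Chosen after their values were seen, further lower regions were those of Ifih1 6.1 kb downstream (-3.51 in LSK, -1.74 in GMP) and Ddx58 4.5 kb upstream (-1.93 and -1.32). With GC-content offsets neither was called in GMP (-1.04 and -0.81). Dhx58 (LGP2), a regulator of both helicases, had 8 regions, of which 1 was lower in GMP, and the kinase gene Eif2ak2 (PKR) had none called for genotype.

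In the OAS family, named for enzymes that make the messenger that activates RNase L, the promoter of Oas2 was among the regions that changed most. Its promoter region (chr5:120749762-120750061) had 4.83, 7.14 and 5.83 CPM (WT) and 0.0952, 0.335 and 0.363 CPM (URE) in LSK, and 2.43, 4.01 and 3.34 CPM (WT) and 0.387, 0.954 and 0.678 CPM (URE) in GMP. WT and URE libraries did not overlap in either cell type, and the log2 fold changes were -4.47 ± 0.39 (edgeR adjusted p = 1.3e-07) and -2.27 ± 0.34 (edgeR adjusted p = 3.6e-05). An intronic region 4.5 kb away (chr5:120754241-120754554) went the other way, from 0.682, 0.816 and 0.945 CPM in WT-LSK to 4.47, 3.18 and 5.68 CPM in URE-LSK and from 2.22, 2.90 and 2.14 CPM in WT-GMP to 6.89, 5.92 and 7.29 CPM in URE-GMP. It rose by 2.44 ± 0.25 in LSK and 1.46 ± 0.22 in GMP. Oasl1, which restrains translation of Irf7, had a sole region, between genes 6.3 kb upstream (chr5:114916736-114917143), with 4.91, 5.47 and 4.36 CPM (WT) and 0.214, 0.307 and 0.256 CPM (URE) in LSK, and 6.19, 6 and 4.82 CPM (WT) and 0.775, 0.885 and 0.751 CPM (URE) in GMP. It changed by -4.23 ± 0.24 in LSK (edgeR adjusted p = 3.8e-09) and -2.81 ± 0.21 in GMP (edgeR adjusted p = 5.4e-08), with no overlap. The promoters of Oas3 and Oasl2 were not called, and a region 5.9 kb upstream of Oas3, chosen after its values were seen, was lower in LSK (-2.43, but -0.44 and not called with loess offsets).

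Samhd1, the dNTP hydrolase that restricts retroviruses, had 10 regions, of which 4 were lower in LSK and 5 in GMP. Of these 5, the regions 5.3 and 5.9 kb downstream were not called with GC-content offsets (-0.77 and -0.60), and the latter also lost its call with loess offsets (-0.88), without URE-GMP replicate 3 (-0.90) and without WT-GMP replicate 1 (-0.95). Between genes 3.8 kb upstream (chr2:157138911-157139260) the libraries had 7.53, 7.26 and 7.38 CPM (WT) and 0.143, 0.419 and 0.384 CPM (URE) in LSK, and 8.95, 9 and 8.02 CPM (WT) and 1.29, 1.75 and 0.751 CPM (URE) in GMP. WT and URE libraries were clearly apart, with -4.55 ± 0.33 in LSK (edgeR adjusted p = 2.0e-08) and -2.75 ± 0.27 in GMP (edgeR adjusted p = 6.8e-07). Its region 6.9 kb upstream, chosen after its values were seen, had 1.5, 1.63 and 1.55 CPM (WT) and 0.0238, 0.0558 and 0.0214 CPM (URE) in LSK, and 2.09, 2.25 and 1.31 CPM (WT) and 0.194, 0.295 and 0.0727 CPM (URE) in GMP. The URE-LSK values rest on 1 to 2 counts per library, so the fitted difference there depends on the prior count, and in GMP the log2 fold change was -3.25 ± 0.40. At its promoter, in contrast, the log2 fold changes were 0.64 ± 0.09 and 0.63 ± 0.09, positive and under the fold limit.

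Other antiviral effectors had regions of both directions away from promoters that were not called. At the exonuclease gene Isg20, the region 9.9 kb upstream (chr7:78903244-78903856), in an intron of Aen, had 0.525, 0.530 and 0.483 CPM (WT) and 1.64, 2.62 and 1.90 CPM (URE) in LSK, and 4.85, 4.32 and 1.77 CPM (WT) and 18.8, 18.4 and 17.6 CPM (URE) in GMP. URE libraries were above WT libraries in both cell types, by 2.0 ± 0.34 and 2.34 ± 0.28, and were highest in GMP. A second Isg20 region 4.2 kb upstream was called higher in LSK (1.76 ± 0.38) and not in GMP (0.03 ± 0.52), and another, in an intron 4.5 kb downstream, was lower in both (-2.72 ± 0.26 and -2.41 ± 0.29). Ifit1, whose product binds foreign RNA caps, had a promoter region (chr19:34640658-34641102) with means of 12.7 (WT) and 12 CPM (URE) in LSK, and 6.01 (WT) and 5.83 CPM (URE) in GMP, and changes of -0.09 ± 0.13 and -0.04 ± 0.13. A region 9.7 kb downstream of Ifit1 was higher in URE-LSK (1.82 ± 0.27). In GMP its change, 0.96 ± 0.32, missed the fold limit, which it passed with RLE (1.019), DESeq2 (1.023), loess (1.20) or GC-content offsets (1.5) and without URE-GMP replicate 1 (1.10) or WT-GMP replicate 3 (1.08). For Rsad2 (viperin) and Cmpk2, neighbours on chromosome 12, the intronic Rsad2 region 3.4 kb downstream was higher in both cell types (1.60 ± 0.19 and 1.07 ± 0.19). The GMP call was lost without URE-GMP replicate 3 (0.96) and with library-size scaling (0.95). The region 4.6 kb upstream of Cmpk2 (chr12:26464463-26464778), with 3 ISRE matches, had 1.80, 1.72 and 1.89 CPM in WT-GMP and 0.387, 0.347 and 0.218 CPM in URE-GMP, against 2.76, 2.33 and 2.09 CPM in WT-LSK and 1.17, 1.06 and 1.56 CPM in URE-LSK. It was lower in GMP (-2.48 ± 0.29), and the change in LSK (-0.91 ± 0.25) missed the fold limit. The LSK value passed that limit with library-size scaling (-1.03), promoter TMM (-1.08) and without replicate 3 of URE-LSK (-1.10) or of WT-LSK (-1.07).

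Further effector regions, named after their values were seen, were the region 9.8 kb upstream of the GTPase gene Mx1, in an intron of 2210009P08Rik (chr16:97472531-97472908), with mean values of 0.834 (WT) and 0.0550 CPM (URE) in LSK, and 5.23 (WT) and 0.398 CPM (URE) in GMP. Its log2 fold changes were -3.82 ± 0.68, with 1 to 4 counts per URE-LSK library, and -3.64 ± 0.45. Bst2 (tetherin), which holds budding virus at the cell surface, had an intronic region 1.6 kb downstream that was higher in both (1.03 ± 0.27 and 1.43 ± 0.27). The LSK call was lost without any of 7 libraries in turn, where the value was 0.82 to 0.98. A region 10 kb downstream of the guanylate-binding protein gene Gbp2 was lower in both (-2.47 and -1.54). The promoters of Mx1, Mx2, Ifit2, Bst2, Gbp2, Gbp3 and the RNA-editing gene Adar were not called.

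Among ubiquitin-like and ADP-ribose genes, the region in an intron of Usp18 5.5 kb downstream (chr6:121251211-121251551) changed most. Usp18 encodes the protease that removes ISG15 and dampens the interferon receptor. That region had 2.34, 2.53 and 2.65 CPM (WT) and 0.476, 0.391 and 0.449 CPM (URE) in LSK, and 3.22, 3.44 and 4.01 CPM (WT) and 0.323, 0.416 and 0.242 CPM (URE) in GMP. URE libraries lay below WT libraries, with log2 fold changes of -2.50 ± 0.25 in LSK and -3.41 ± 0.26 in GMP. Isg15, the ubiquitin-like modifier itself, had an uncalled promoter (0.34 ± 0.17 and 0.18 ± 0.18) and a region 9.5 kb upstream (chr4:156210016-156210522), nearest to Perm1, that was lower in both (-1.72 and -1.06), the GMP call being lost with GC-content offsets (-0.64), without URE-GMP replicate 3 (-0.85) and without WT-GMP replicate 1 (-0.91). The mono-ADP-ribosyltransferase genes were named after their values were seen: a region 1.0 kb upstream of Parp14 was lower in both (-1.93 and -1.27, the latter -0.96 with loess offsets), and a region shared by Parp9 and its partner Dtx3l, 5.7 kb upstream, was higher in GMP (1.63 ± 0.40).

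In antigen processing, the genes Psmb8, Psmb9 (immunoproteasome subunits) and Tap1 (the peptide transporter) lie together on chromosome 17 and share regions. A region between genes 7.4 kb upstream of Tap1 (chr17:34180009-34180290) had 0.157, 0.122 and 0.181 CPM (WT) and 0.404, 0.502 and 0.641 CPM (URE) in LSK, and 1, 1.34 and 1.04 CPM (WT) and 4.39, 5.10 and 2.86 CPM (URE) in GMP. URE libraries were higher, by 1.69 ± 0.39 and 1.86 ± 0.27. Its neighbour at chr17:34180549-34180844, under 1 kb away and chosen after its values were seen, was lower (-2.24 and -1.77), so that adjacent regions moved in opposite directions. In a coding exon 1.1 kb upstream of Psmb8 (chr17:34196505-34196858), the libraries had 10.4, 10.4 and 10.9 CPM in WT-LSK and 2.07, 2.18 and 2.54 CPM in URE-LSK. In GMP that region had 9.96, 8.77 and 10.2 CPM in WT and 5.14, 5.41 and 4.29 CPM in URE, and the changes were -2.22 ± 0.17 (edgeR adjusted p = 2.9e-08) and -0.96 ± 0.16, the latter short of the fold limit. The GMP value passed that limit with library-size scaling (-1.08), promoter TMM (-1.10), GC-content offsets (-1.01), a mean of at least 2 CPM (-1.03) and without replicate 2 of URE-GMP or WT-GMP (-1.03 in each).

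The design also allows the question whether the effect of genotype differed between LSK and GMP. The test of the difference (GMP effect minus LSK effect) called 12 of the 154 regions, 10 positive and 2 negative, which is 7.79% against 14% of all regions and 11.7% of others near a start site (7.76% positive and 3.94% negative). Of the 12 regions 1 was a promoter, where 4.96% of other promoters were called (2.94% positive and 2.02% negative), and 11 were distal, where 14.5% of other distal regions were called (9.77% and 4.75%). At 8 of the 10 the loss was deeper in LSK. At Oas2 the log2 fold change of the promoter was -4.47 in LSK and -2.27 in GMP, a difference of 2.20 ± 0.53 (edgeR adjusted p = 0.0097). Differences of the same kind were found at Samhd1 3.8 kb upstream (1.79 ± 0.42), Oasl1 (1.43 ± 0.32), Irf2 4.0 kb upstream of the internal start (1.39 ± 0.37, but 0.98 without URE-GMP replicate 2 and 1.31 without URE-LSK replicate 1, neither called), Irf1 2.2 kb downstream (1.78 ± 0.37) and Psmb8 (1.26 ± 0.23). The region 7.3 kb upstream of Ifit1 (chr19:34633409-34633814), nearest to Ifit1bl2, was at 4.57, 6.4 and 5.99 CPM (WT) and 1.09, 1.28 and 0.769 CPM (URE) in LSK, and 6.57, 8.12 and 5.23 CPM (WT) and 6.52, 7.56 and 5.98 CPM (URE) in GMP. It was thus low in URE-LSK alone, with -2.44 ± 0.24 in LSK, 0.01 ± 0.21 in GMP and a difference of 2.45 ± 0.32 (edgeR adjusted p = 1.5e-04). The 2 negative regions were Cmpk2 4.6 kb upstream (-1.57 ± 0.38), which lost more in GMP, and Irf2 at chr8:46791192-46791471 (-1.62 ± 0.34), which gained more in LSK.

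**Figure D5:**
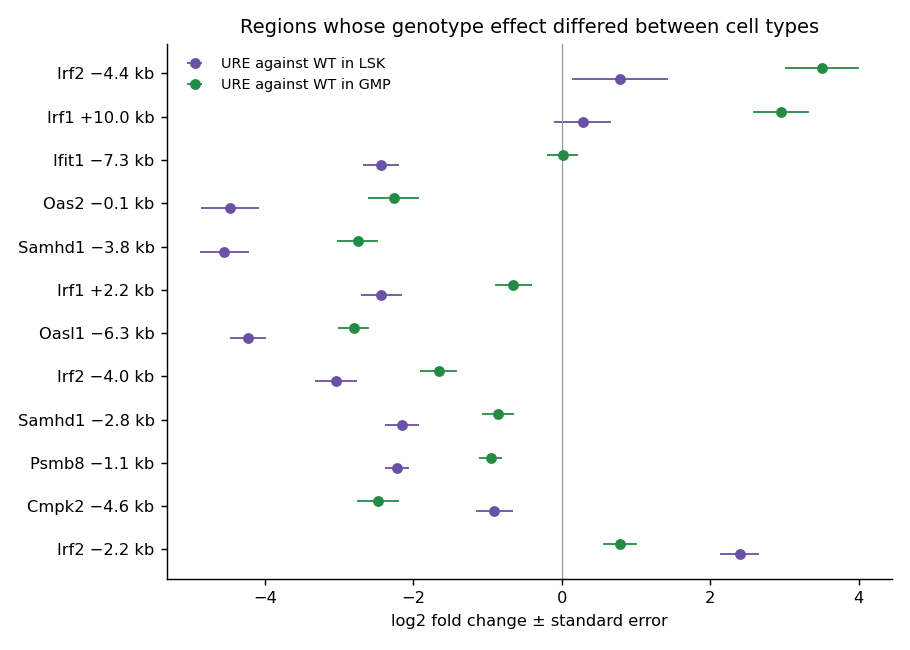
Log2 fold change ± SE (x axis; URE against WT, n = 3 libraries per group) in LSK (purple) and GMP (green) for the 12 regions whose genotype effect differed between the cell types. At 10 of the 12 the LSK value lies to the left of the GMP value, and of these Irf1 +10 kb and Irf2 -4.4 kb show a gain in GMP.

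A last pair of comparisons asked how accessibility at these genes differed between GMP and LSK cells within each genotype. These comparisons share no library with each other, but their libraries are those of the genotype comparisons above. In WT 20 regions were higher and 9 lower in GMP than in LSK (18.8%, against 37.8% of all regions and 31.2% of others near a start site, 18.6% higher and 12.6% lower), and in URE 30 were higher and 11 lower (26.6%, against 49.1% and 41.5%, the latter 24.7% higher and 16.9% lower). In both genotypes the share called was smaller than among the other regions, a difference that was not tested. Of the promoters 2 were called in WT, both lower in GMP, at Ifit1 (-1.08 ± 0.13, edgeR adjusted p = 6.0e-06) and Isg15 (-1.003 ± 0.18), where 13.5% of other promoters were called (6.22% higher and 7.3% lower). In URE 2 promoters were higher and 2 lower, where 19.7% of other promoters were called (8.55% and 11.1%). Distal regions were higher at 20 and lower at 7 in WT (38.6% of other distal regions called, 23.8% higher and 14.8% lower), and at 28 and 9 in URE (50.7%, 31.5% and 19.3%). The Isg15 value lay at the fold limit and was not called once replicate numbers entered the fit as blocks (-0.998). It also lost its call with RLE (-0.954), loess offsets (-0.972), DESeq2 (-0.956) and a fit of the 2 groups only (-0.976). In WT the regions with the smallest p that gained accessibility in GMP were at Eif2ak2, 8.6 kb upstream (0.132 CPM in WT-LSK and 5.14 in WT-GMP, 5.32 ± 0.45), Isg15, 9.5 kb upstream (2.68 ± 0.29), and Dhx58, 2.9 kb downstream (1.94 ± 0.18). Those that lost it were the Ifit1 promoter and Isg20, 9.6 kb (-2.72 ± 0.28) and 4.5 kb downstream (-1.71 ± 0.25). The Eif2ak2 region gained accessibility in URE cells too (4.99 ± 0.43), and the Irf5 region 2.3 kb upstream gained 1.82 ± 0.47 in WT.

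Further genes of the pathway were taken from 2 lists, to be read against 30.6% of other regions near a start site called in LSK and 32.7% in GMP, and 11.5% and 13.1% of other promoters. Interferon signalling (28 genes: among them receptors, Janus kinases, other IRFs and inhibitors) had 143 regions, of which 10 were higher and 30 lower in LSK (28%) and 20 higher and 26 lower in GMP (32.2%). Of its 29 promoter regions 3 were lower in LSK (10.3%) and 1 in GMP (3.45%), and none was higher. Other interferon-stimulated genes (84 genes, 77 with a region) had 283 regions, with 18 higher and 50 lower in LSK (24%) and 29 higher and 53 lower in GMP (29.0%). Among their 90 promoter regions 2 were higher and 7 lower in LSK (10%), and 1 higher and 11 lower in GMP (13.3%). The medians were 0.14 in LSK and 0.14 in GMP for signalling and 0.13 and -0.0044 for the other stimulated genes.

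Called regions were set against their motif matches as a description. Of the 34 distal regions that held a composite or PU.1 match, 14 were lower and 2 higher in LSK (41.2% lower, against 42.5% of other distal regions with such a match). In GMP 12 were lower and 2 higher (35.3% lower, against 40.3%). Of the 55 distal regions with no composite, PU.1 or ISRE match, 12 were lower and 6 higher in LSK (21.8% lower, against 20.4%) and 10 lower and 10 higher in GMP (18.2% lower, against 19.9%). In each of these pairs the share near interferon response genes was close to that near other genes. Of the stretches printed above, those of Mx1 and Isg20 hold composite matches of identical letters, and the Mx1 region lost and the Isg20 region gained accessibility in URE cells.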

How the data were processed

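ATAC-seq libraries were made by the OmniATAC protocol. Per the labels and the study's methods, reads were trimmed with cutadapt, aligned to GRCm38 with Bowtie2, peaks were called with Genrich and combined with bedtools, and reads were counted over the combined regions with featureCounts (versions not given in the sources used here). The authors deposited raw counts per region for the 12 libraries, with no normalisation, and these were used as deposited. Region starts were taken as 0-based and are printed 1-based. Regions were assigned to genes with the start sites of the GENCODE M21 basic annotation. The 10 kb window, the promoter class and the distance classes were measured from the nearest edge of the region. The distance given with a named region, and that in the figure of distances, runs from the region centre to the closest start site of a listed gene. The list of genes, the motifs and the tests were chosen with earlier results of these data known.

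Counts were fitted with edgeR 4.0.16 in R 4.3.3 (quasi-likelihood, all 12 libraries in 1 fit with 4 groups, TMM scaling, common biological coefficient of variation 0.185). The low-count filter removed 0 regions. P-values were adjusted over all 121336 regions in each of 5 comparisons, and calls needed an adjusted p under 0.05 and a log2 fold change above 1 or below -1. CPM were computed with the TMM library sizes. Library depth was 23072701 to 62204826 counts. Named regions were, by rule, the most accessible promoter region of Irf1, Irf2, Irf5, Irf7, Irf9 and Stat2, the 6 called regions per direction with the smallest p and no overlap between libraries in LSK and in GMP, the 4 per direction for the interaction and the 3 per direction for GMP against LSK in WT (31 regions), and all other regions were chosen after their values were seen. The labels do not tie replicate numbers to mice or batches, so numbers were taken as pairing libraries only where every pair's deviations from the group means correlated above 0.1. Same-numbered LSK and GMP libraries of WT mice deviated together (correlations of 0.167, 0.166 and 0.184), and the others did not in every pair. Alternatives were other scalings (RLE, library size, TMM on promoters, loess with limma 3.58.1, GC-content offsets), filters, distances, glmTreat, the replicate block, leaving out each library and DESeq2 1.42.0. Certain sequences and genes are not reported here. Figures were drawn with matplotlib 3.10.9.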

Additional observations from a re-analysis of the deposited data

Results flagged for a closer look

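The 12 regions whose genotype effect differed between LSK and GMP (edgeR test of the interaction, n = 3 libraries per group) had the following differences in log2 fold change, GMP effect minus LSK effect. A loss that was deeper in LSK gave 2.45 at Ifit1 7.3 kb upstream, 2.20 at the Oas2 promoter, 1.79 and 1.30 at Samhd1 3.8 and 2.8 kb upstream, 1.78 at Irf1 2.2 kb downstream, 1.43 at Oasl1, 1.39 at Irf2 4.0 kb upstream of its internal start and 1.26 at Psmb8. A gain in GMP gave 2.67 at Irf1 10 kb downstream and 2.72 at Irf2 4.4 kb upstream. Negative differences were -1.57 at Cmpk2 4.6 kb upstream and -1.62 at Irf2 2.2 kb upstream of its internal start. The call at Irf2 4.4 kb upstream was lost without any of 8 of the 12 libraries in turn, with values of 1.96 to 2.92. Tested against a fold above the limit with glmTreat, 2 of the 12 were called.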

How the results depend on the processing

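Limits: 3 libraries per group set the precision, and 10 kb is a fixed distance that says nothing of which gene a region acts on. Regions with the lowest CPM rest on few counts (3 counts are 0.077 CPM in the mean over libraries). The count table gives no position within a region. A scaling that assumes no net change was used, and the scaling moved the median of all regions: in LSK it was 0.14 as reported, 0.017 with library-size scaling, -0.043 with TMM on promoter regions and 0.28 with GC-content offsets, and in GMP 0.055, -0.064, -0.084 and 0.21, with 0.16 under loess offsets. Changes in this report are relative to TMM over all regions.

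Numbers of called regions are given for genotype in LSK, genotype in GMP, cell type among WT libraries, cell type among URE libraries and the interaction, in this order. They were 7, 7, 3, 7 and 2 within 1 kb of a start site, 3, 3, 2, 4 and 1 for promoter regions (chosen after seeing the data), 25, 22, 13 and 22 in the first 4 within 5 kb, 76, 78, 64 and 87 with no fold threshold, and 27, 26, 15 and 25 with a mean of at least 2 CPM. With glmTreat they were 26 in GMP and 2 for the interaction. The shares called with no fold threshold were 49.4%, 50.6%, 41.6% and 56.5%, against 53.9%, 57.9%, 55.2% and 63.9% of other regions near a start site. At 2 CPM they were 22.3%, 21.5%, 12.4% and 20.7%, against 21.5%, 22.2%, 22.6% and 32.6%. The glmTreat shares were 16.9% in GMP and 1.30% for the interaction, against 21.8% and 2.49%. Leaving out 1 library at a time gave 44 to 48, 37 to 47, 28 to 32, 39 to 47 and 10 to 16. Of the 43 regions called in GMP, 34 held with GC-content offsets, where the cause was not tested. The median log2 fold change in LSK was 0.13 within 1 kb, 0.10 within 5 kb, 0.11 with RLE or DESeq2, -0.057 with library size, -0.12 with promoter TMM, 0.20 with GC-content offsets with or without the replicate block, -0.043 at 2 CPM and 0.0087 with the 2 groups only. In GMP it was -0.14 for regions nearest to a listed gene, 0.015 with RLE, 0.014 with DESeq2, -0.16 with library size, -0.18 with promoter TMM, 0.026 with loess, 0.11 with GC-content offsets and 0.12 with these and the block. For GMP against LSK in URE it was -0.18 within 1 kb, -0.057 within 5 kb, -0.018 for nearest, 0.11 with RLE or DESeq2, -0.010 with library size and 0.0045 at 2 CPM, and for the interaction -0.041 and 0.020 within 1 and 5 kb. The leave-one-out ranges of the medians were 0.00076 to 0.087, -0.055 to 0.0066, -0.13 to -0.010, 0.016 to 0.068 and -0.0044 to 0.15.

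With the replicate block, 46, 43, 28, 41 and 14 regions were called, and 50, 45, 30, 43 and 16 with GC-content offsets added. The shares with the block were 29.9%, 27.9%, 18.2%, 26.6% and 9.09%, against 30.9%, 32.9%, 31.2%, 41.5% and 12.9% of other regions near a start site. With the offsets added they were 32.5%, 29.2%, 19.5%, 27.9% and 10.4%, against 35.2%, 35.0%, 31.2%, 41.4% and 12.9%. Only the pairing in WT met the criterion given in the methods, where the Isg15 promoter lost its call with the block (-0.998). Same-numbered libraries correlated at 0.088, 0.062 and -0.044 in LSK, 0.094, 0.194 and 0.330 in GMP and 0.053, 0.256 and 0.099 across cell types in URE, and 2, 5 and 4 of 6 libraries correlated best with their own number.

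Log2 fold changes that reversed were small or uncalled, except at Dhx58 4.4 kb (GMP, 0.20) and Usp18 2.1 kb (LSK, 0.26) downstream, both under loess. Stat2 in LSK was -0.0079 with promoter TMM and -0.019 with loess. Irf1 at its promoter was -0.017 in GMP with loess, and in LSK -0.0070 with promoter TMM, -0.12 with loess and -0.047 with GC-content offsets with or without the block. Irf2 at its promoter was -0.065 in GMP with loess. Irf9 at its main promoter region in GMP was 0.018 with RLE, 0.053 with GC-content offsets with or without the block and 0.017 with DESeq2, and in LSK -0.099 with library size, -0.16 with promoter TMM or loess, -0.12 at 2 CPM, -0.032 with 2 groups only and -0.085 to 0.063 with 1 library left out. Ifit1 7.3 kb upstream in GMP was -0.11 with library size, -0.13 with promoter TMM, -0.058 at 2 CPM and -0.13 to 0.19 with 1 library left out. Isg20 4.2 kb upstream in GMP was -0.088 with library size, -0.11 with promoter TMM, -0.038 with the block and -0.53 to 0.31 with 1 library left out. Irf1 10 kb downstream in LSK was -0.053 to 0.56 with 1 library left out. The interaction was not run with the 2 groups only, since it needs all 4.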
